A study of Mus musculus with 46 samples.

Results

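Axon guidance genes encode the cues and the receptors with which a growing axon is steered. The members described here were taken by name from a gene-level RNA-seq table of the mouse hippocampus. They were the semaphorins (Sema), plexins (Plxn), neuropilins (Nrp1 and Nrp2), ephrins (Efna and Efnb), Eph receptors (Epha and Ephb), netrin-1 (Ntn1) with its receptors Dcc and Unc5a to Unc5d, and the Slit and Robo genes. Transmembrane Slitrk proteins were left out by the rule. For the Unc5 genes a single letter was taken to follow the name, a reading chosen here that gives Unc5a to Unc5d and leaves out Unc50, which is not a netrin receptor. Of 69 symbols that matched, 4 had a mean below 1 TPM over all libraries, where TPM is the share of transcripts that a gene takes after correction for its length. Epha1 had a mean of 0.0880 TPM and Plxna4os1, an antisense gene, 0.212 TPM, whereas the members nearest to the limit were Efna4 at 1.21 and Epha2 at 1.59 TPM. The 65 remaining genes, 32 ligands and 33 receptors, were all tested, among 15476 genes at or above 1 TPM of 52636 in the table.

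Pups of the strain Balb/cByj were reared under control conditions (CTL), with limited bedding (LB, little bedding material and no nesting square in the cage) or under unpredictable postnatal stress (UPS, described by the submitters only by reference to earlier work). The left hippocampus was taken at postnatal day 17 and its RNA sequenced, from 15 CTL pups (9 female and 6 male), 16 LB pups (9 female and 7 male) and 15 UPS pups (7 female and 8 male). The questions were which guidance genes differed between each form of early stress and CTL, whether they differed between LB and UPS, and whether the answer depended on sex.

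Guidance cues attract or repel the growth cone at the tip of an axon. Semaphorins are read by plexins, and the secreted Sema3 proteins mostly need a neuropilin as co-receptor. Ephrins are membrane-bound and are read by Eph receptor tyrosine kinases on neighbouring cells. Netrin-1 attracts through Dcc and repels through Unc5 proteins, while Slits repel through Robo receptors. In the hippocampus these systems are known for laying out the entorhinal, mossy fibre and commissural projections, and several of their members stay in use at synapses or in cells of the oligodendrocyte lineage.

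The libraries were alike in quality. Between 21150 and 24707 genes had a value above 0, and mitochondrial genes took 9.52% to 14.2% of the TPM. Depth per library cannot be read from TPM. Female UPS pup 2 stood apart, with a median correlation of 0.950 to its group where every other library reached at least 0.977, so the UPS counts are also given without it. Xist and the Y-linked Ddx3y matched the labelled sex in all 46 libraries. Male and female libraries differed in 44.6% of all genes tested (20.7% higher and 23.9% lower in males), and the 2 females numbered 9 lay among the males on the axis that carried this difference, so sex and a possible library batch cannot be told apart. Their column names record an earlier name for each of these 2 pups, without the F of female columns and so in the form used for males. The methods also divide the CTL and LB pups between the sexes in another way than the labels used here. Counting both females numbered 9 as male gave 7 calls among the guidance genes in LB and 12 in UPS, and leaving both out gave 6 and 13. The labels of female UPS pup 1 also conflict, with UPS in its title and LB in its stress field. It was kept as UPS, and without it UPS gave 13 calls (Epha4 added) and LB against UPS 0. The fits compared rearing groups within each sex and averaged the 2 differences. The pups came from several litters that the labels do not identify, so the p-values, which treat pups as independent, may be too small.

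In CTL pups the guidance genes spanned a wide range of levels. The highest was Epha4, a receptor that binds both ephrin classes, with TPM from 191.3 to 307.7 and a mean of 231.2 ± 29.8 (SD, n = 15). Epha5, an ephrin-A receptor, followed with 165 ± 19.4 TPM, then the ligand Efnb3 with 137 ± 14.5 TPM. Slit1 with 111 ± 13.6 TPM and Sema6b with 111 ± 18.4 TPM had nearly the same mean, and their order was not tested. The range of Epha5 over pups, from 131.4 to 206.8 TPM, overlapped that of Epha4, although every CTL pup had more Epha4 than Epha5. The range of Efnb3 overlapped that of Epha5.

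Of the 65 members, 5 had a CTL mean of at least 100 TPM, 28 lay between 30 and 100, 18 between 10 and 30, 10 between 3 and 10 and 4 under 3 TPM. The most abundant member of each remaining family was Sema7a (95.5 ± 9.27 TPM), the plexin Plxna1 (86.9 ± 11.6 TPM), the netrin receptor Unc5a (85.4 ± 14.5 TPM), the co-receptor Nrp1 (81.7 ± 6.26 TPM), Efna3 (71.5 ± 5.33 TPM), Sema4d (68.9 ± 8.05 TPM), Robo2 (65.7 ± 8.42 TPM), Sema5a (64.4 ± 6.17 TPM), Plxnb1 (59.0 ± 4.18 TPM), Sema3e (47.4 ± 5.66 TPM), Ephb6 (43.3 ± 7.09 TPM) and Plxnd1 (29.8 ± 4.89 TPM). Ntn1, the only netrin among the members, was at 6.15 ± 0.788 TPM, well under its receptor Dcc at 19.6 ± 1.95 TPM. The coefficient of variation among CTL pups ranged from 6.53% for Plxna4 to 41.1% for Sema3f, and the least variable genes included Plxnb1 (7.08%) and Nrp2 (7.12%).

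**Figure D1:**
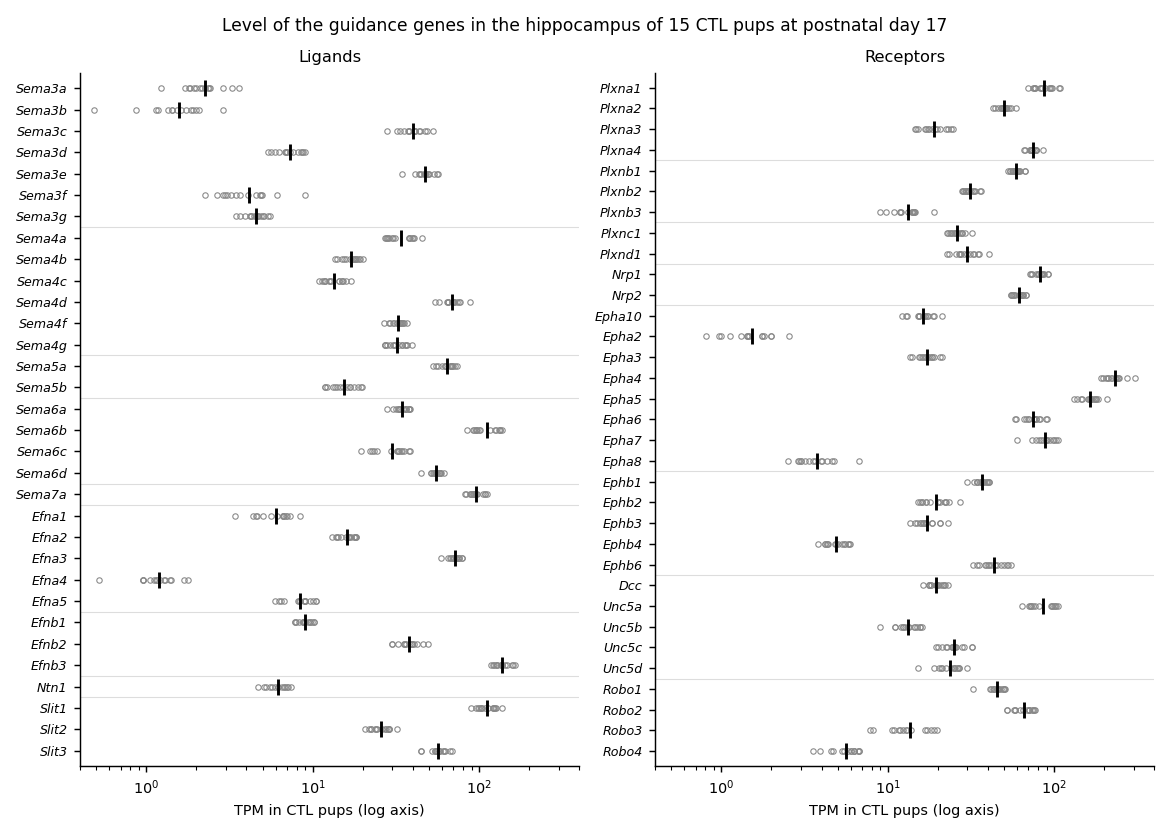
TPM of the 32 ligands (left) and 33 receptors (right) in the 15 CTL pups, on a log axis, grouped by family. Open circles are pups and the black bar is the mean, and Epha4 (mean 231.2 TPM) and Epha5 (165 TPM) stand at the upper end while Efna4, Epha2, Sema3b and Sema3a stand under 3 TPM.

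Both forms of early stress changed the level of some guidance genes. Against CTL, LB changed 7 of 65 members at an adjusted p under 0.05 (limma on log2(TPM + 1), Benjamini-Hochberg over all 15476 genes): Epha5 and Nrp2 were higher, and Plxnb3, Plxnb1, Sema4d, Unc5b and Sema6a lower. With TPM rescaled without mitochondrial genes the split was 1 higher and 5 lower. Across all genes 6.43% were called in this comparison, 3.09% higher and 3.34% lower. UPS changed 12 of 65 members: Epha5, Nrp2, Epha6, Robo1, Robo2, Dcc and Plxna1 were higher, and Plxnb1, Plxnb3, Unc5b, Ephb6 and Sema4a lower. The share of all genes called was 8.34%, with 4.5% higher and 3.84% lower. The members were called at 10.8% in LB and 18.5% in UPS, above these shares, and no enrichment was tested. In LB the share of members called higher was close to that of all genes.

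Receptors made up most of the calls. In LB, 2 receptors were higher and 3 lower of 33, and 2 ligands were lower of 32. These were 15.2% of the receptors and 6.25% of the ligands, the second close to the 6.43% of all genes. In UPS, 7 receptors were higher and 4 lower, and 1 ligand was lower, which was 33.3% and 3.12% beside 8.34% of all genes. The contrast between receptors and ligands was not tested. At an unadjusted p under 0.05 in limma there were 16 of 65 members in LB and 18 of 65 in UPS. These shares were close to the 22.0% and 25.3% of all genes. The median log2 fold change of the 65 members was 0.04 in LB and 0.03 in UPS, beside 0.00 and -0.01 over all genes. In LB 43 of 65 members lay above 0 and in UPS 39 did, beside 51.3% and 48.3% of all genes. Single members ranged from -0.46 to 0.25 in LB and from -0.42 to 0.24 in UPS. No member separated the groups without overlap in TPM, as held for 0% of all genes in LB and 0.00646% in UPS.

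**Figure D2:**
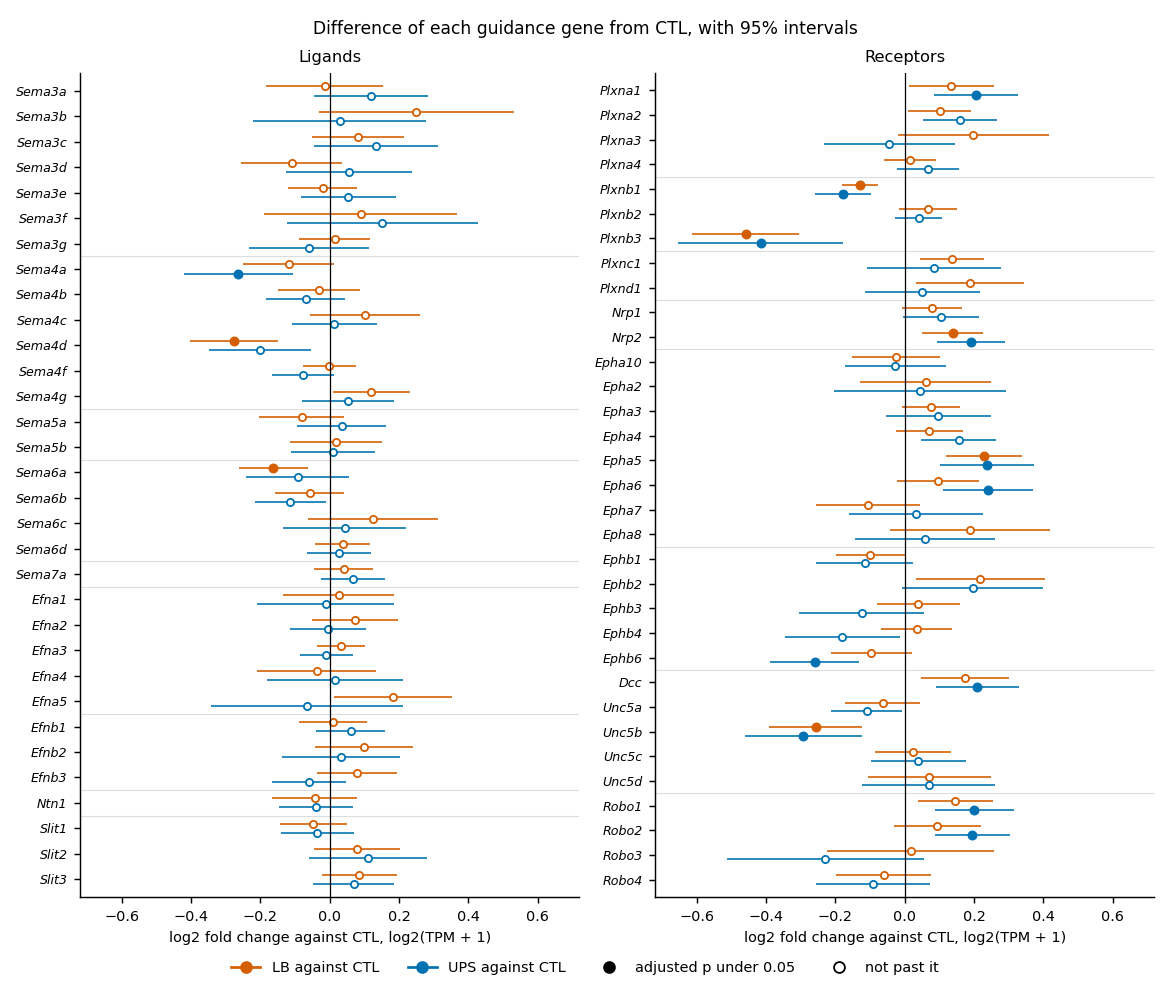
Log2 fold change against CTL of each ligand (left) and receptor (right) with its 95% interval, LB in orange and UPS in blue, filled where the adjusted p was under 0.05. Plxnb3 lies farthest below 0 in both comparisons (-0.46 in LB and -0.42 in UPS), and filled points are mostly receptors.

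Plxnb3, a plexin-B receptor for Sema5A that in rodent brain is chiefly an oligodendrocyte gene (chrX:73757090-73772514), fell most. Its TPM ran from 8.92 to 19.0 in CTL pups (median 14.02), from 6.87 to 12.8 in LB pups (median 9.16) and from 3.54 to 15.4 in UPS pups (median 10.7). The groups overlapped, but 8 of 16 LB pups lay under the lowest CTL pup. Plxnb3 fell by 0.46 on the log2 scale in LB (SE 0.08, limma adjusted p = 0.00146, lower than the CTL mean of the same sex in 15 of 16 pups). In UPS it fell by 0.42 (SE 0.12, limma adjusted p = 0.0257, 14 of 15 pups). Without female UPS pup 2, whose 3.54 TPM was the lowest value, the UPS difference was -0.33 (limma adjusted p = 0.0175).

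Plxnb1, the plexin-B receptor for Sema4D (chr9:109095389-109119917), fell by less, but every LB and UPS pup lay under the CTL mean of its sex. TPM was 53.0 to 66.6 in CTL (median 58.8), 47.0 to 62.8 in LB (median 52.5) and 37.4 to 62.0 in UPS (median 53.1). Both sexes were lower: the median of females went from 56.6 TPM in CTL to 51.03 in LB and 49.5 in UPS, and that of males from 62.0 to 58.4 and 56.6. The log2 difference was -0.13 in LB (SE 0.03, limma adjusted p = 0.00350, 16 of 16 pups) and -0.18 in UPS (SE 0.04, limma adjusted p = 0.00727, 15 of 15 pups). The last plexin-B gene, Plxnb2, a receptor of Sema4 proteins, gave 0.07 in LB and 0.04 in UPS and passed neither test.

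Unc5b, a repulsive netrin receptor also used by blood vessels (chr10:60762593-60831581), was the last of 3 members lower under both stresses. It spanned 8.95 to 16.0 TPM in CTL (median 13.3), 7.48 to 13.1 in LB (median 11.3) and 5.81 to 14.7 in UPS (median 11.0). The ranges overlapped broadly, with only 2 pups under the lowest CTL pup in each stress group. The log2 difference was -0.26 in LB (SE 0.07, limma adjusted p = 0.0174, 16 of 16 pups) and -0.29 in UPS (SE 0.08, limma adjusted p = 0.0254, 13 of 15 pups). The other Unc5 genes, Unc5a, Unc5c and Unc5d, passed neither test, with differences between -0.11 and 0.07.

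Epha5, which reads ephrin-A ligands on hippocampal axons and dendrites (chr5:84054761-84417382), was the most abundant member to rise. TPM ran from 131.4 to 206.8 in CTL (median 167), from 147 to 228 in LB (median 194) and from 133 to 242 in UPS (median 194). In females the median was 176 TPM in CTL, 200 in LB and 202 in UPS, and in males 152, 190 and 187, so both sexes stood higher. The log2 difference was 0.23 in LB (SE 0.05, limma adjusted p = 0.00977, 13 of 16 pups) and 0.24 in UPS (SE 0.07, limma adjusted p = 0.0254, 14 of 15 pups). Leaving out CTL male 6 took the UPS value just past the threshold (limma adjusted p = 0.0550).

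Nrp2, the neuropilin that serves Sema3F and steers mossy fibre and interneuron axons (chr1:62703285-62818695), rose under both stresses as well. TPM was 54.7 to 67.3 in CTL (median 61.6), 57.5 to 78.3 in LB (median 66.4) and 56.2 to 80.6 in UPS (median 69.3). In UPS 10 of 15 pups lay above the highest CTL pup, and in LB 7 of 16 did. The log2 difference was 0.14 in LB (SE 0.04, limma adjusted p = 0.0490, 12 of 16 pups) and 0.19 in UPS (SE 0.05, limma adjusted p = 0.0130, 13 of 15 pups). The LB call was lost in 23 of the 31 fits that left out 1 library, with differences between 0.12 and 0.16, whereas the UPS call was kept in all 30. Nrp1, its paralogue, gave 0.08 in LB and 0.10 in UPS and passed neither test.

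The 5 members called in the same direction under both stresses differed in the base composition of their promoters. Their upstream sequences are shown because these 5 genes were called under both stresses, and no binding was measured. Each is the stretch from 250 to 51 bases before the RefSeq start (build GRCm38.p6), 200 bases written 5′ to 3′ on the strand of the gene: Plxnb3 chrX:73756853-73757052 (plus), Plxnb1 chr9:109095186-109095385 (plus), Unc5b chr10:60831632-60831831 (minus), Epha5 chr5:84417433-84417632 (minus) and Nrp2 chr1:62703067-62703266 (plus). Capitals mark matches, on either strand, to CTGGNAC (the core bound by the myelin factor MYRF), ACAAAG (SOX), CAGATG (an E-box read by bHLH factors) or GGGCGG (the GC box). In Nrp2, 2 GC boxes share a base and appear as 1 run of capitals.
Plxnb3: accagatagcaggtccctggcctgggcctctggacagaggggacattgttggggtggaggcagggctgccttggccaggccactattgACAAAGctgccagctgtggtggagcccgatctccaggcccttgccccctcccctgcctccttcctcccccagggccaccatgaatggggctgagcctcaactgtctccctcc
Plxnb1: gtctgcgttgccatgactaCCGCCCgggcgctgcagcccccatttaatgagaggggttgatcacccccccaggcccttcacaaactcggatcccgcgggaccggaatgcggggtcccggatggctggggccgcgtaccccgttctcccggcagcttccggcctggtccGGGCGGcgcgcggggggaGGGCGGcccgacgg
Unc5b: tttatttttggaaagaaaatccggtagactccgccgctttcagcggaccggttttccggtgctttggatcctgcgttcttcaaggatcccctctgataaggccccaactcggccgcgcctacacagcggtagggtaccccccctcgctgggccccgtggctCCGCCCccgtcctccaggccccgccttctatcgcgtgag
Epha5: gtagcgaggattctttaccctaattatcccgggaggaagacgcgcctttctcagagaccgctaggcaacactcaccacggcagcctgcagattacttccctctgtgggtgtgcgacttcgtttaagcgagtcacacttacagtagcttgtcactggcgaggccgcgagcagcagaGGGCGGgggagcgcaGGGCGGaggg
Nrp2: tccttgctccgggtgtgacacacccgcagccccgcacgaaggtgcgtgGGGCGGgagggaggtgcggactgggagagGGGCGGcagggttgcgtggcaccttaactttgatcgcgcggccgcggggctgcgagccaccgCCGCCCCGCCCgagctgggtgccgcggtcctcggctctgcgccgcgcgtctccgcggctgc
The GC box was found in 4 of the 5, namely Plxnb1, Unc5b, Epha5 and Nrp2, whose windows held 15 to 28 CpG pairs. The Plxnb3 window held 1 CpG pair and no GC box, and was the only 1 of the 5 with a SOX match, at bases 89 to 94. CTGGNAC and CAGATG were found in none. Of 32841 RefSeq windows of the same length, 24.6% held the GC box, 13.6% ACAAAG, 13.2% CTGGNAC and 12% CAGATG. Among the 55 members with a RefSeq window, 67.3% held the GC box and 10.9% ACAAAG in any of their windows. These shares count genes, whereas the shares above count single windows and are not limited to the tested genes, so they are not like measures. The median GC content of the members, from the first window of each, was 63.5% where that of all windows was 51.5%. These matches describe letters in the windows and not sites in use.

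A pair of membrane semaphorins were called in LB alone. Sema4d, the Sema4 ligand of Plxnb1 and a protein of oligodendrocytes in the postnatal brain (chr13:51685529-51793747), ranged from 54.2 to 87.8 TPM in CTL (median 69.6), 44.1 to 69.8 in LB (median 57.2) and 38.5 to 75.1 in UPS (median 62.4). Of 16 LB pups 5 lay under the lowest CTL pup. It fell by 0.28 in LB (SE 0.06, limma adjusted p = 0.00713, 15 of 16 pups), and the UPS difference was -0.20 (SE 0.07, limma adjusted p = 0.0740, 13 of 15 pups). The difference between LB and UPS was -0.08 with a 95% interval from -0.22 to 0.07, so LB and UPS were not shown to differ.

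Sema6a, which binds plexin-A receptors and guides granule cell axons, ranged from 28.0 to 38.4 TPM in CTL (median 35.1), 24.8 to 35.9 in LB (median 30.4) and 23.9 to 41.7 in UPS (median 30.9). It fell by 0.16 in LB (SE 0.05, limma adjusted p = 0.0393, 12 of 16 pups), and the call was lost in 18 of 31 fits without 1 library. In UPS the difference was -0.09 (limma adjusted p = 0.452).

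In UPS 7 further members passed the test, of which 5 were higher. Epha6, an ephrin-A receptor (chr16:59653483-60605531), spanned 58.3 to 90.4 TPM in CTL (median 76.0), 63.9 to 91.9 in LB (median 81.4) and 70.1 to 104 in UPS (median 86.6). It rose by 0.24 in UPS (SE 0.06, limma adjusted p = 0.0191, 13 of 15 pups), while the LB difference was 0.09 (limma adjusted p = 0.347). No UPS pup lay below 70.1 TPM, whereas CTL males reached down to 58.3 TPM.

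Robo1 and Robo2, the Slit receptors of long-range projection axons, lie near each other on chromosome 16 (chr16:72308306-73046095 and chr16:73891839-74411825) and rose together. Robo1 spanned 32.4 to 50.6 TPM in CTL (median 45.4), 41.0 to 62.2 in LB (median 48.9) and 43.1 to 67.1 in UPS (median 49.5). It was 0.20 higher in UPS (SE 0.06, limma adjusted p = 0.0243, 14 of 15 pups) and 0.15 higher in LB, where the test was not passed (limma adjusted p = 0.0937). Robo2 spanned 51.8 to 76.4 TPM in CTL (median 68.5), 52.7 to 91.4 in LB (median 69.5) and 66.2 to 91.4 in UPS (median 70.9), and was also 0.20 higher in UPS (SE 0.05, limma adjusted p = 0.0206, 14 of 15 pups). Robo2 was higher in the female libraries, which made up 9 of 15 in CTL and 7 of 15 in UPS. Within females the median went from 70.6 TPM in CTL to 77.6 in UPS, and within males from 58.3 to 68.3. Robo3 and Robo4, the second a gene of blood vessels, passed neither test, and Robo3 was too variable for a narrow estimate (-0.23 in UPS, 95% interval from -0.51 to 0.06).

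Dcc, the attractive netrin receptor, ranged from 16.3 to 23.1 TPM in CTL (median 19.6), 17.2 to 29.4 in LB (median 22.6) and 18.4 to 28.9 in UPS (median 23.1). In UPS it rose by 0.21 (SE 0.06, limma adjusted p = 0.0256, 12 of 15 pups), and 8 of 15 pups lay above the highest CTL pup. In LB 7 of 16 pups did, and the difference of 0.17 missed the threshold (SE 0.06, limma adjusted p = 0.0878). Without CTL male 7 the UPS call was lost (limma adjusted p = 0.0547). Unc5b, the receptor of the same ligand with the opposite action, was the member that moved the other way, and Ntn1 itself gave -0.04 in both comparisons (limma adjusted p = 0.711 in LB and 0.675 in UPS).

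Plxna1, a plexin-A receptor of Sema3 and Sema6 proteins (chr6:89316314-89362620), had 69.7 to 108 TPM in CTL (median 84.0), 78.8 to 125 in LB (median 95.2) and 78.9 to 122 in UPS (median 102). It was 0.21 higher in UPS (SE 0.06, limma adjusted p = 0.0284, 13 of 15 pups) and 0.13 in LB (limma adjusted p = 0.179). The UPS call did not hold without UPS female 7 (limma adjusted p = 0.0512). Plxna2, another plexin-A receptor, was at 0.10 in LB (limma adjusted p = 0.178) and stood just outside the threshold in UPS (0.16, SE 0.05, limma adjusted p = 0.0541) and Epha4 likewise (0.16, SE 0.05, limma adjusted p = 0.0607).

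The 2 members lower in UPS alone were Ephb6 and Sema4a. Ephb6, an Eph receptor without kinase activity (chr6:41605482-41620509), spanned 32.7 to 55.1 TPM in CTL (median 41.5), 32.1 to 53.0 in LB (median 40.3) and 23.3 to 45.4 in UPS (median 37.8). It fell by 0.26 in UPS (SE 0.06, limma adjusted p = 0.0105, 15 of 15 pups below the CTL mean of their sex) and the LB difference was -0.10 (limma adjusted p = 0.335). Sema4a, a membrane semaphorin known for its part in immune cells and retina (chr3:88435959-88461182), differed between male and female libraries. Its CTL medians were 28.8 TPM in females and 39.99 in males, and its UPS medians 27.0 and 33.3. It fell by 0.26 in UPS (SE 0.08, limma adjusted p = 0.0306, 14 of 15 pups). That call was lost without CTL male 1, 6 or 7, with adjusted p up to 0.0549.

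Female UPS pup 2 had the lowest TPM of all 46 pups for 23 of the 65 members, among them all 5 called lower in UPS (Plxnb3, Plxnb1, Unc5b, Ephb6 and Sema4a) and Sema4d and Sema6a. It had the highest TPM for 5 members, among them Robo1. Without it the UPS count was 18 members, 11 higher and 7 lower. The 12 members called with it were called without it too, and Epha3, Ephb2, Nrp1, Plxna2, Sema6b and Unc5a were added. The differences of the added genes were 0.17, 0.26, 0.14, 0.18, -0.14 and -0.14 in that order. The comparison of LB with UPS gave 0 calls without it as well.

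**Figure D3:**
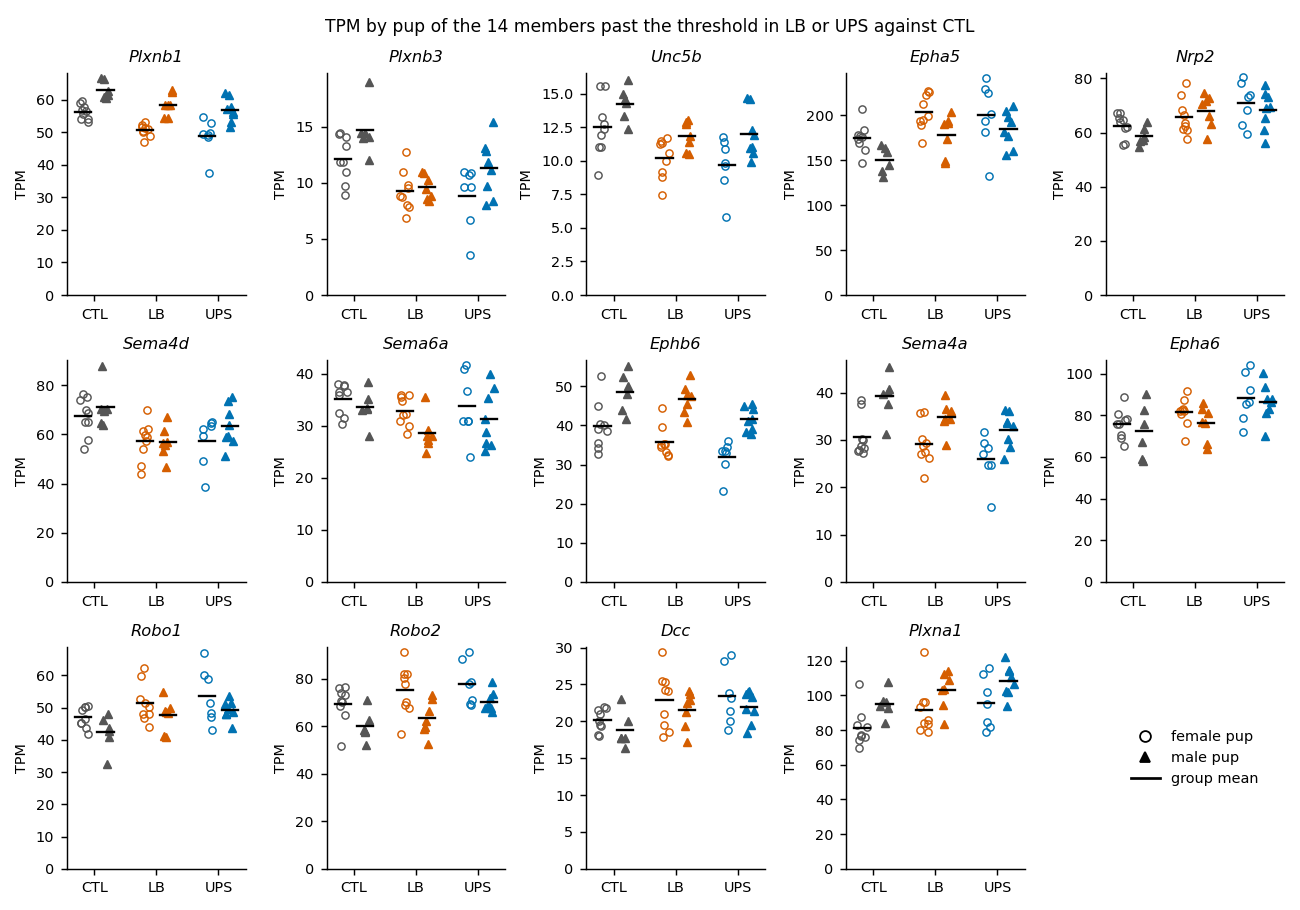
TPM by pup of the 14 members called in LB or UPS against CTL, by rearing group on the x axis, with open circles for female pups, triangles for male pups and bars for the mean of each sex. All groups overlap, and for Plxnb1 the female and male means of LB and UPS both lie under the CTL means of the same sex.

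Few ligands passed the test. None of the 8 ephrins passed the test in either comparison, and their log2 differences lay between -0.04 and 0.18 in LB and between -0.06 and 0.06 in UPS. The largest was that of Efna5, an ephrin-A known from retinal and hippocampal maps, at 0.18 in LB (SE 0.08, limma adjusted p = 0.185). Among ephrin-B genes the smallest p was that of Efnb2 in LB (0.10, limma adjusted p = 0.419) and of Efnb1 in UPS (0.06, limma adjusted p = 0.462). Slit1, Slit2 and Slit3 lay between -0.05 and 0.11, and the closest to the threshold was Slit3 in LB (0.09, limma adjusted p = 0.353). None of the 7 Sema3 genes, which encode secreted ligands, was called, and the smallest p was that of Sema3b in LB (0.25, SE 0.14, limma adjusted p = 0.290) and of Sema3c in UPS (0.13, limma adjusted p = 0.352). Sema5a, the ligand of Plxnb3, was at -0.08 in LB and 0.03 in UPS, and Sema7a, which acts through integrins and Plxnc1, at 0.04 and 0.07.

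Several other receptors did not pass the test. Ephb2, which clusters NMDA receptors at synapses, was at 0.22 in LB (SE 0.09, limma adjusted p = 0.147) and 0.20 in UPS (SE 0.10, limma adjusted p = 0.216). Ephb1 was at -0.10 and -0.12. Plxnc1 came close in LB (0.14, SE 0.05, limma adjusted p = 0.0635) and gave 0.08 in UPS, and Plxnd1, a vascular and neuronal Sema3E receptor, gave 0.19 in LB (SE 0.08, limma adjusted p = 0.133).

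No member differed between LB and UPS. The test gave 0 of 65 calls where all genes gave 0.0388% (0.0129% higher and 0.0258% lower in LB), and 5 members had an unadjusted p under 0.05 in limma where all genes gave 11.7%. No member and 0% of all genes had groups without overlap. With array weights, which give less weight to outlying libraries, the count was also 0. The smallest p was that of Ephb6, which was 0.16 higher in LB (95% interval from 0.06 to 0.27, limma adjusted p = 0.234), followed by Ephb4 (0.21, interval from 0.05 to 0.38, limma adjusted p = 0.305) and Epha6 (-0.15, interval from -0.26 to -0.03, limma adjusted p = 0.311). Next came Efnb3 (0.14, limma adjusted p = 0.378) and Plxna3, a Sema3 receptor (0.24, limma adjusted p = 0.423). In the remaining families the smallest p belonged to Sema3a (-0.13), Sema4a (0.15), Robo3 (0.25), Efna5 (0.25), Sema5a (-0.12), Plxnd1 (0.14), Sema6b (0.06), Plxnb1 (0.05), Nrp2 (-0.05), Unc5a (0.05), Sema7a (-0.03), Slit2 (-0.03) and Ntn1 (0.00), with limma adjusted p from 0.434 to 0.986.

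The intervals show how far the 2 stresses could still differ. For Plxnb1 the LB value minus the UPS value was 0.05 (95% interval from -0.03 to 0.13), for Plxnb3 -0.04 (from -0.27 to 0.19), for Unc5b 0.03 (from -0.12 to 0.19), for Epha5 -0.01 (from -0.15 to 0.13) and for Nrp2 -0.05 (from -0.16 to 0.05). A gene called against CTL under 1 stress alone was therefore not shown to respond differently to the other. The comparisons of LB and of UPS with CTL share the same 15 CTL pups, so the 5 shared calls are not independent of each other.

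The rearing differences were not shown to depend on sex. The interaction of rearing and sex passed the test for 0 members in each comparison (limma smallest adjusted p = 1 in LB and 0.965 in UPS), as for 0% of all genes. At an unadjusted p under 0.05 there was 1 member, Efnb3 in UPS, where all genes gave 2.43% in LB, 3.88% in UPS and 2.61% between LB and UPS. Efnb3 gave -0.17 in females and 0.05 in males (limma unadjusted p = 0.0405). The smallest p values in LB were those of Efna1 (-0.13 in females and 0.18 in males, 0.0601), Efnb1 (-0.08 and 0.10, 0.0629) and Unc5d (-0.08 and 0.23, 0.0835). In UPS, Efnb1 (-0.03 and 0.15, 0.0647) and Epha7 (-0.11 and 0.17, 0.144) came next, and between LB and UPS Sema3f (-0.32 and 0.20, 0.0506), Epha7 (0.05 and -0.33, 0.0820) and Epha2 (-0.18 and 0.21, 0.0956). The sign was the same in both sexes for 54 of 65 members in LB and 48 in UPS, with no share of all genes to set beside them. It was also the same for all 7 and all 12 called members. A call rests on the mean of the female and male differences, so this agreement follows largely from the selection and says little about sex. Tested within females alone, no member was called in LB or UPS, and within males alone Plxnb3 was called in LB. Between male and female libraries themselves 42 of 65 members differed, 30 higher and 12 lower in males, beside the 44.6% of all genes given above. Sema6b (0.37 higher in male libraries) and Unc5a (0.40) had the smallest p. For both genes the 2 females numbered 9 stood at the level of the males. Sema6b was at 137 TPM in CTL female 9 and 122 in LB female 9, where CTL males had 116 to 134.4 and LB males 116.7 to 131.1. Unc5a was at 102 and 96.2 TPM, where CTL males had 95.8 to 105.8 and LB males 87.3 to 101.5. These differences therefore cannot be assigned to sex.

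Genes outside the 65 members were read from 2 lists. Of 41 other guidance ligands and receptors, 39 were tested. Draxin, a secreted ligand of Dcc, was higher in LB (0.34, SE 0.09, limma adjusted p = 0.0212) and Ntrk2, the BDNF receptor, lower (-0.08, limma adjusted p = 0.0437). In UPS, Fzd3, a Wnt receptor of commissural axons (0.20), Cxcr4, a chemokine receptor (0.21), and Neo1, a Dcc paralogue (0.16), were higher and Rtn4r, the Nogo receptor, lower (-0.17). These were 5.13% of the list in LB and 10.3% in UPS, near the shares of all genes.

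Of the intracellular effectors 72 were tested of 73 listed. In LB 7 were higher and 1 lower, 11.1% of the list beside 6.43% of all genes, and in UPS 11 were higher and 0 lower with limma, 15.3% beside 8.34%. The median log2 difference of the list was 0.02 in LB and 0.05 in UPS, and no enrichment was tested. The widest difference was that of Dpysl3 (CRMP4, a semaphorin effector on the cytoskeleton), with TPM of 97.8 to 156 in CTL (median 107), 97.0 to 328 in LB (median 169) and 117 to 217 in UPS (median 156). Its log2 difference was 0.59 in LB (SE 0.14, limma adjusted p = 0.0119, 14 of 16 pups) and 0.39 in UPS (SE 0.08, limma adjusted p = 0.00503, 15 of 15 pups). Srgap1, a GTPase-activating protein downstream of Robo, was at 0.28 and 0.24 (limma adjusted p = 0.0130 and 0.00568), Crmp1 at 0.26 and 0.17, Trim67, a Dcc-binding ligase, at 0.36 and 0.27, Gsk3b at 0.13 and 0.23, and the GTPase Cdc42 at 0.12 and 0.10, all called in both. Rnd1, which binds plexins, was higher in LB (0.29, limma adjusted p = 0.0365) and did not pass the test in UPS (0.17, limma adjusted p = 0.345). In UPS Fyn (0.11), Srgap2 (0.12) and Pak2 (0.10) were also higher.

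In bulk tissue fewer cells of a type and less RNA per cell cannot be told apart. Markers of other cell classes moved with the rearing groups, and their part in the results above was not tested. All 12 mature oligodendrocyte markers were lower in LB (median log2 difference -1.01) and 10 of 12 in UPS (median -0.64), with a summed TPM of 1886 to 5722 in CTL, 664.3 to 3925 in LB and 1290 to 4579 in UPS. None of 6 oligodendrocyte progenitor markers was called. Of 6 immature neuron markers 3 were higher in LB and 4 in UPS, with a summed TPM of 87.2 to 172 in CTL, 116 to 175 in LB and 115 to 197 in UPS. Draxin, given above as a guidance ligand, was among those called in LB. Reln, from the Cajal-Retzius list, was higher in both. The 3 tested of the 5 genes on that list were Reln, Ndnf and Trp73, and Trp73 was called in neither. Reln is not restricted to Cajal-Retzius cells, so a value for this list does not identify them. Markers of microglia, endothelial cells and mural cells gave 0 calls with limma. The astrocyte list was mixed, with Aqp4 higher and Aldoc and S100b lower of 7 in LB and Aldoc lower in UPS. The interneuron list had Pvalb lower of 7 in both, and the dentate list C1ql2 lower of 6 in both and Dock10 in LB. Of 5 red blood cell markers, Hbb-bt was higher in LB, and Hba-a1, Hba-a2 and Hbb-bs in UPS. Single calls were those of Ndnf (Cajal-Retzius, higher in LB), Neurod6 (pyramidal neuron, higher in UPS) and Lamp5 (neocortex, lower in LB), and no marker of these lists was at 0 in a whole group.

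The guidance genes differed in which of these lists they followed from pup to pup. Correlations were taken over 46 pups after removing the mean of each rearing and sex group, and are descriptions, since all values come from the same libraries. With the mature oligodendrocyte list r was 0.74 for Sema4d, 0.73 for Plxnb3, 0.68 for Sema3d, 0.56 for Ephb1, 0.53 for Sema6a and 0.45 for Unc5b, all above the 95th percentile of all genes at 0.40. Most of these genes followed the progenitor list about as closely, with r of 0.69 for Ephb1, 0.67 for Sema6a, 0.66 for Plxnb3, 0.60 for Sema4d and 0.59 for Unc5b, where the 95th percentile of all genes was 0.60. Plxnb1 was at 0.35 with the mature list, at 0.68 with the progenitor list and at 0.65 with the astrocyte list. Female UPS pup 2 was kept in these correlations. Its mean log2 level of the progenitor list was 4.90, where the next lowest library, LB female 6, had 5.28. Its astrocyte level of 7.18 was also the lowest. The same pup had the lowest TPM for Ephb1, Sema6a, Plxnb3, Sema4d, Unc5b and Plxnb1. How far these r values rest on this library was not tested. Epha5 followed the immature neuron list (0.72, with a 95th percentile of 0.48) and Dcc both that list (0.64) and the Cajal-Retzius list (0.70, with a 95th percentile of 0.50). Nrp2 followed the Cajal-Retzius list (0.67). Ephb6, Sema4a and Epha6 had r between 0.01 and 0.06 with the mature oligodendrocyte list, and Robo1, Robo2 and Plxna1 had r from -0.33 to -0.18. With the interneuron list Ephb6 was at 0.515, above the 95th percentile of all genes at 0.457. Epha6 at -0.453 and Robo1 at -0.417 lay under the 5th percentile of that list, -0.303. Sema4a was at 0.517 with the progenitor list, under its 95th percentile. Female UPS pup 2 had the lowest TPM for Ephb6 and Sema4a as well.

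**Figure D4:**
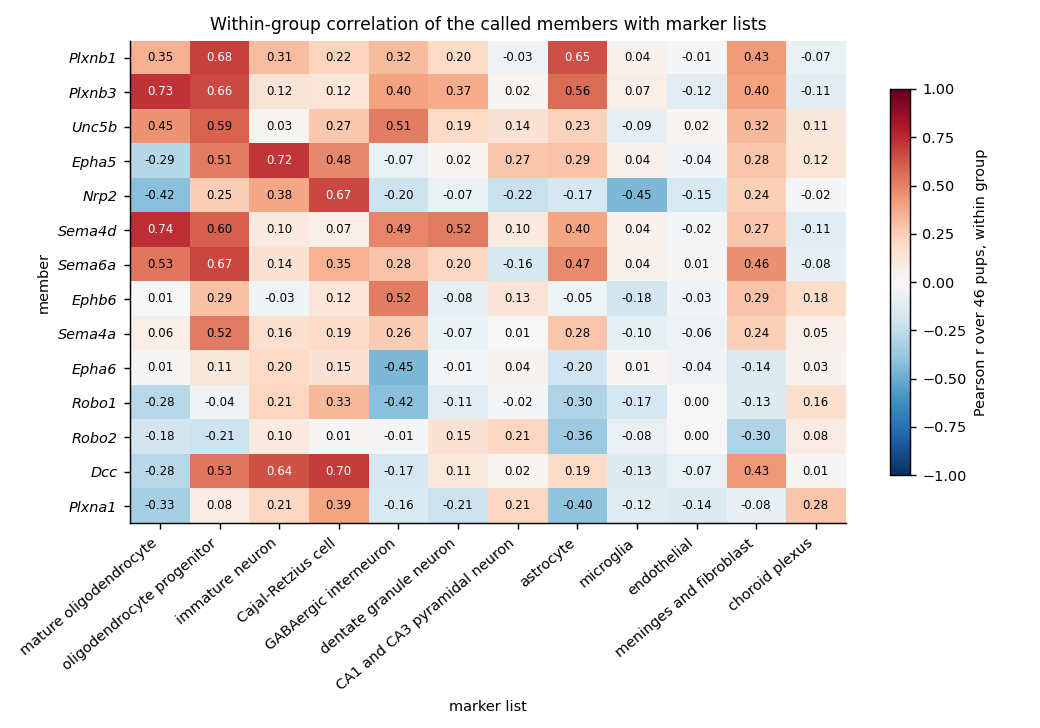
Pearson correlation over 46 pups, after removing group means, between each of the 14 called members (rows) and the mean log2 level of 12 marker lists (columns), red for positive and blue for negative. Sema4d (0.74) and Plxnb3 (0.73) are highest with mature oligodendrocyte markers, and Epha5 (0.72) with immature neuron markers.

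Adding the oligodendrocyte marker level of each pup as a covariate removed every call against CTL among the members, but it also left 0 calls among all genes in LB and 20 in UPS. The covariate itself differed between the groups, so the 2 cannot be told apart in this fit. The size of the differences then fell unevenly. In LB, Plxnb3 went from -0.46 to -0.18, Sema4d from -0.28 to -0.07, Nrp2 from 0.14 to 0.00 and Epha5 from 0.23 to 0.09, while Plxnb1 went from -0.13 to -0.11. In UPS, Plxnb3 went from -0.42 to -0.11 and Unc5b from -0.29 to -0.12, while Epha6 (0.24 to 0.28), Dcc (0.21 to 0.22), Plxna1 (0.21 to 0.22), Robo1 (0.20 to 0.20), Ephb6 (-0.26 to -0.22) and Sema4a (-0.26 to -0.22) kept most of their size.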

How the data were processed

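RNA from the left hippocampus of 46 pups at postnatal day 17 was sequenced by the authors with a KAPA mRNA kit. Per the labels, reads were trimmed and aligned with HISAT2 to mm10, and the authors deposited TPM per gene from StringTie (no version is given). The deposited tables of group comparisons, made by the authors with DESeq2, hold fold changes and p-values and were not used. TPM is relative to each library, so a rise of abundant genes lowers the rest, and it keeps no read depth.

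Groups came from the sample titles, also for female UPS pup 1, whose stress field reads LB. Rearing groups were compared in pairs with limma 3.58.1 (R 4.3.3) on log2(TPM + 1), with a mean for each rearing and sex group and a variance trend, over the 15476 genes whose mean reached 1 TPM, and Benjamini-Hochberg adjustment at 0.05. A log2 fold change is the mean of the female and male differences and understates the change of low genes. The script was tested on simulated data. Gene positions are from GENCODE M21 (GRCm38), to which 99.8% of the tested IDs matched without their version. Promoter windows are from RefSeq.

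The members, lists and tests were chosen with earlier results of these data known. Genes named were the called members, the most abundant and smallest-p member of each family, the smallest interaction p values, members whose call changed under several alternatives, and called genes of the 2 pathway lists, of which 1 is not reported here. Same-numbered pups of different groups did not deviate together (r above 0.1 in 3 of 14 pairs for LB, 1 of 13 for UPS and 2 of 14 between LB and UPS), so numbers were not taken as pairs. Alternatives covered the filter, pseudocount, scaling, model terms, weights, single sexes and each library left out.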

Additional observations from a re-analysis of the deposited data

Results flagged for a closer look

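Of 84 groups of pups looked at for the 14 called members, 7 held a value far from the rest of its group, where chance gives about 1 in 20. Plxna1 stood at 106 TPM in CTL female 9, where the other CTL females had 69.7 to 87.6 TPM, and at 125 TPM in LB female 9, where the others had 78.8 to 96.3 TPM. These are the 2 females that lay among the males on the axis of sex. Plxnb1 was at 37.4 TPM in UPS female 2, where the others had 48.6 to 54.7 TPM, and this is the library that stood apart overall. CTL male 3 was high for Plxnb3 (19.0 TPM, others 12.1 to 14.5 TPM) and for Sema4d (87.8 TPM, others 63.7 to 70.5 TPM). Robo2 was at 51.8 TPM in CTL female 7 (others 64.8 to 76.4 TPM), and Sema6a at 35.6 TPM in LB male 1 (others 24.8 to 29.1 TPM). No called member went one way in every female pup and the opposite way in every male pup.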

How the results depend on the processing

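The 7 calls in LB and 12 in UPS depended most on the terms of the model. With rearing alone in the model there were 4 in LB and 1 in UPS, with the oligodendrocyte marker level as a covariate 0 and 0, in females alone 0 and 0, and in males alone 1 and 0. Without a filter on low TPM the count in UPS was 7. The covariate moved the median log2 fold change of the members in LB from 0.04 to -0.0381. Single sexes hold fewer pups, and the cause of the other changes was not tested.

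Leaving out 1 library at a time gave 5 to 10 calls in LB, 10 to 18 in UPS and 0 between LB and UPS, with medians of 0.03 to 0.06, 0.02 to 0.04 and -0.01 to 0.02. In the UPS comparison, Plxnb3 lost its call without CTL male 3 (adjusted p = 0.0511 with limma). The replicate block, the pup number as a term, gave 7 calls in LB, 11 in UPS (8 higher and 3 lower, Plxnb3 and Unc5b not among them) and 0 between LB and UPS. Array weights gave 9 and 18 calls. No result changed direction while called. Nrp2 in LB lost its call in 9 of 17 other alternatives and Sema6a in 7 of 17. TPM keeps no depth, so no floor on detection can be given for Epha2, Efna4, Sema3a and Sema3b, all under 3 TPM.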
